A study of Homo sapiens with 44 samples.

Results

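The change that an induced JMJD6 hairpin gave in CHP134 cells was set against the change that the same hairpin gave in SK-N-AS cells. Both are established human neuroblastoma lines. MYCN is amplified in CHP134 but not in SK-N-AS, which came from a bone marrow metastasis. In each line a doxycycline-inducible lentiviral construct with a GFP marker expressed JMJD6 shRNA-2, and cells with strong GFP signal had been collected by flow sorting. Cells received 2 µg/ml doxycycline (DOX) or vehicle control for 40 h. Of 44 columns in the series, which stand for 40 distinct Clariom S arrays, 14 were JMJD6 shRNA-2 arrays: CHP134 with vehicle or DOX in repeats A, B, C and D, and SK-N-AS with vehicle or DOX in an unlettered pair, called repeat 1 here, and in repeats B and C. The DOX array minus the vehicle array of the same repeat gave 4 differences for CHP134 and 3 for SK-N-AS. All values below are such differences, on the log2 intensity scale, unless a level is named. The hairpin of each CHP134 array follows its sample title and shRNA label. The text submitted for the series assigns the repeat letters of the hairpins the other way round, and if that text were right the CHP134 arrays used here would carry shRNA-1. The question was which genes responded in 1 line and not in the other.

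JMJD6 is a jumonji domain enzyme of the nucleus that hydroxylates lysines of splicing factors and has been described as an arginine demethylase. Its gene lies on the long arm of chromosome 17, which is often gained in neuroblastoma. Neuroblastoma arises from the sympathetic nervous lineage, and its lines range from an adrenergic state, with noradrenaline enzymes and dense-core vesicles, to a mesenchymal state, with matrix and adhesion genes. A short hairpin RNA is processed to a small RNA that guides cleavage of the matching transcript, and it can also lower other transcripts through short matches.

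The lines had been normalized apart, so levels were never set against each other and only the changes were compared. Array medians ranged over 6.10 to 6.16 for the CHP134 arrays and 6.03 to 6.05 for the SK-N-AS arrays. The gap between positive and negative control probe sets was smaller with DOX in all 7 pairs, with changes of -0.2005 to -0.109 for CHP134 pairs and -0.11 to -0.0044 for SK-N-AS pairs, and the part of this gap in the results was not tested. The differences were spread more widely in CHP134, with a median SD over repeats of 0.223 against 0.166 in SK-N-AS. CHP134 repeat A was the widest, with 4.47% of clusters changed by more than 1. Of all clusters, 75.34% in CHP134 and 80.59% in SK-N-AS exceeded a background limit, set where 95% of negative control probe sets lay lower. Counts of markers above this limit therefore do not identify a state or a cell type. Of markers of neuroblastoma states, 6 of 6 adrenergic genes exceeded it in both lines. Of mesenchymal genes, 6 of 7 did so in CHP134, the exception being YAP1, and 7 of 7 in SK-N-AS. Of 22 markers of other cell types, none was called for a change in either line or for a difference between lines. Of these, 3 of 4 fibroblast and 3 of 4 immune genes exceeded the limit of the line in CHP134, the exceptions being LUM and PTPRC, and 4 of 4 of each did so in SK-N-AS. For endothelial genes it was 2 of 3 in CHP134 and 3 of 3 in SK-N-AS, and for epithelial genes 1 of 4 and 2 of 4. For liver and for erythroid genes it was 1 of 2 and 2 of 2, and for Schwann genes 1 of 3 in each line.

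JMJD6 itself was lower with DOX in each of the 7 pairs. In CHP134 its level went from 7.80 to 6.45 in repeat A, from 7.61 to 6.74 in B, from 7.79 to 6.69 in C and from 7.87 to 6.90 in D. In SK-N-AS it went from 7.26 to 6.44 in repeat 1, from 7.16 to 6.84 in B and from 7.44 to 6.63 in C. The reduction was smallest in SK-N-AS repeat B. JMJD6 fell by 1.08 in CHP134 (SE 0.11, 2.11-fold, adjusted p = 6.8e-04 by limma), and its change in SK-N-AS was -0.65 (SE 0.13, 1.57-fold, adjusted p = 0.0764). The reductions differed between the lines by 0.43 (95% interval of CHP134 minus SK-N-AS from -0.82 to -0.04, adjusted p = 0.288), which did not pass the test over all clusters. The mean reduction was thus larger in the line with the larger number of called genes, and its part in the results below was not tested. Line, culture medium and normalization run differ together and cannot be told apart. In such bulk samples, fewer cells of a type and less RNA per cell cannot be told apart either.

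Over 21448 transcript clusters, limma called 3706 clusters for a change in CHP134 (17.3% of those tested), 1874 higher (8.74%) and 1832 lower (8.54%). In SK-N-AS it called 109 clusters (0.508%), 26 higher and 83 lower. A call in 1 line alone does not show a difference, so the difference between the lines was tested itself. It was called for 102 clusters (0.476%), of which 57 had the higher change in CHP134 and 45 the lower one, and 3251 clusters had an unadjusted p under 0.05. Of the 3628 clusters called in CHP134 but not in SK-N-AS, 3542 therefore had no called difference between lines. The mean changes of the lines had the same sign for 60.02% of all clusters, for 78.25% of the clusters called in CHP134 and for 81.65% of those called in SK-N-AS. Across clusters, which share arrays and are not independent, Pearson's r between the mean changes of the lines was 0.41 and Spearman's rho was 0.32.

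Among the 102 clusters, 86 were CHP134-specific, meaning that the difference and the CHP134 change were called and the SK-N-AS change was not. That is 0.401% of the clusters tested. Another 10 (0.0466%) were SK-N-AS-specific by the reverse rule, 5 (0.0233%) were called in both lines with opposite sign, and 1, the calcium channel subunit gene CACNG4, was called for the difference alone. The calls were close to the threshold. ITGB8 and SYT4 had adjusted p = 0.00583, the next value was 0.0251, and 79 of the 102 lay between 0.04 and 0.05, with the first outside at 0.0503. Only 7 of the 102 were called again in any fit without 1 of the 7 repeats. With vehicle and DOX arrays taken as unpaired groups, 1 cluster was called (0.00466% of those tested), and it was among the 102.

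**Figure D1:**
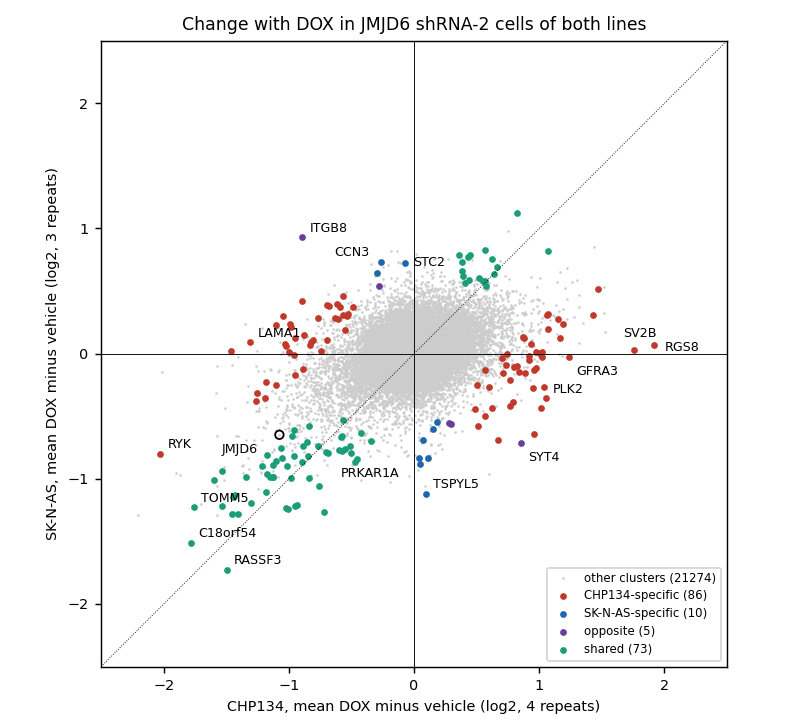
Each point is 1 transcript cluster, with the mean DOX minus vehicle change (log2) of the 4 CHP134 repeats on the x axis and of the 3 SK-N-AS repeats on the y axis. The dotted line marks equal change. CHP134-specific clusters (86) lie on both sides of the x axis, some far from it, such as SLC6A2 (0.67 and -0.69) and RYK (-2.03 and -0.80). SK-N-AS-specific ones (10) lie nearer the y axis, shared ones (73) near the dotted line, and ITGB8 and SYT4 in the corners of opposite change. JMJD6 (open circle) had -1.08 and -0.65.

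ITGB8 and SYT4 had the firmest difference between the lines, and both moved in opposite directions in CHP134 and SK-N-AS. ITGB8 encodes the integrin beta 8 subunit, which pairs with the alpha V subunit and binds latent TGF-beta. Its differences were -1.08, -0.63, -0.74 and -1.12 in CHP134 repeats A to D and 1.04, 0.84 and 0.92 in SK-N-AS repeats 1, B and C. All CHP134 repeats were negative, all SK-N-AS repeats were positive, and the groups were far apart. Such separation follows from how the genes of this class were chosen (16.5% of all clusters had no overlap). ITGB8 fell by 0.89 in CHP134 (SE 0.10, 1.86-fold) and rose by 0.93 in SK-N-AS (SE 0.12, 1.91-fold), a difference of -1.82 (SE 0.16, 3.54-fold, adjusted p = 0.00583). Its mean level in CHP134, 4.33 with vehicle and 3.43 with DOX, was not above the background limit of 4.30 when all 8 arrays were averaged, so the fall took place near background.

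SYT4 encodes a synaptotagmin of dense-core vesicles. Its differences were 0.67, 0.89, 0.78 and 1.07 in CHP134 and -0.75, -0.67 and -0.73 in SK-N-AS, with little spread within a line. The lack of overlap follows from how the gene was chosen. It rose by 0.85 in CHP134 (SE 0.09, 1.81-fold) and fell by 0.72 in SK-N-AS (SE 0.10, 1.64-fold), a difference of 1.57 (SE 0.13, 2.97-fold, adjusted p = 0.00583). Both genes kept the call without any single CHP134 repeat and without SK-N-AS repeat B, and lost it without SK-N-AS repeat 1 (adjusted p = 0.0782 for each) or C (0.0711 for each). In SK-N-AS control shRNA cells the SYT4 differences were -2.59, 2.57 and -0.42, which is wider than any shRNA-2 difference of this gene. The first and the second of these differences each involve 1 of 2 control arrays that stand apart, described with the control cells. CAMK2D, a subunit of the calcium and calmodulin dependent kinase II, had 0.31, 0.43, 0.19 and 0.25 in CHP134 and -0.63, -0.53 and -0.51 in SK-N-AS. It rose by 0.29 in CHP134 and fell by 0.56 in SK-N-AS (difference 0.85, SE 0.12, adjusted p = 0.0406). The other 2 clusters of this class have no gene symbol.

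The promoters of genes with a line-dependent change were read from RefSeq, and 68 of the 90 named genes of the 3 classes were in the table. The 150 bases before the start of ITGB8 and SYT4, which carry the clearest opposite change, and of CHGA and PRKAR1A, described below, are shown 5′ to 3′ (GRCh38.p14). CHGA is 1 of the CHP134-specific vesicle genes, and PRKAR1A, a regulatory subunit of the cyclic AMP dependent kinase, is 1 of the SK-N-AS-specific falls. Capitals mark TGACG on either strand, the half-site of the cyclic AMP response element, whose full form TGACGTCA holds the half-site on both strands.
ITGB8 (chr7:20330750-20330899, plus strand): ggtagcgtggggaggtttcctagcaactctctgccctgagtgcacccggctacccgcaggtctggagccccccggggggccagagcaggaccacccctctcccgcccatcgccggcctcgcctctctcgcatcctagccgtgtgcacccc
SYT4 (chr18:43277491-43277640, minus strand): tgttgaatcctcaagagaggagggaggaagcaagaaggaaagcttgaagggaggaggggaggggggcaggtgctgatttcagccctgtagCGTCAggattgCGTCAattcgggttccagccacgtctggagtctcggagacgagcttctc
CHGA (chr14:92923000-92923149, plus strand): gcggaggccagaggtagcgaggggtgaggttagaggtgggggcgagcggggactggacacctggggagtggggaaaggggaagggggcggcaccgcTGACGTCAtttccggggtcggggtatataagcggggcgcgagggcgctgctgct
PRKAR1A (chr17:68512280-68512429, plus strand, 1 of 5 annotated starts and the one with most half-sites): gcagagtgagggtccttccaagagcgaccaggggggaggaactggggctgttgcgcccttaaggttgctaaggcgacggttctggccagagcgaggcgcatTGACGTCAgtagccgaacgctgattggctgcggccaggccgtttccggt

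The full element was present in the windows of CHGA and PRKAR1A, a pair of half-sites in that of SYT4, and none in that of ITGB8. Over the 250 bases before each start, TGACGTCA was found on either strand in 1.65% of all 35116 windows. It was found in 1 of 52 windows of CHP134-specific genes that rose (1.92%), 2 of 48 of those that fell (4.17%) and 1 of 11 of SK-N-AS-specific genes (9.09%). By gene this was 1 of 34, 1 of 26 and 1 of 5, beside 555 of 27305 over all. CHGA was the 1 gene that rose with the element and PRKAR1A the 1 SK-N-AS-specific gene, so neither typifies its group. The half-site was in 21.2% of all windows and in 17.3%, 16.7% and 36.4% of the same groups, and CACGTG, the E-box bound by MYC and MAX, in 6.34% of all windows and in 3.85%, 4.17% and 18.2%. TGACTCA, the AP-1 element, was in 4.20% of all windows and in 3.85% of the windows of genes that rose and 6.25% of those of genes that fell. These counts describe letters in short windows and are small, and a gene with several starts enters with several windows that are not independent.

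Of the 86 CHP134-specific clusters, 47 rose and 39 fell in CHP134, and 78 carry 1 gene symbol. The absolute change in CHP134 ranged from 0.48 to 2.03 with a median of 0.92. For 66 of the 86 the 95% interval of the SK-N-AS change lay within 1.5-fold each way, and the SK-N-AS mean had the opposite sign for 61 and the same sign for 25. The repeats of the lines did not overlap in any of the 86, which follows from how they were chosen (16.5% of all clusters had no overlap). The largest rises were in RGS8, SV2B, UHMK1 and ATG4A. RGS8, which speeds up GTP hydrolysis by G protein alpha subunits, had 2.54, 1.99, 1.96 and 1.17 in CHP134 and 0.01, -0.20 and 0.39 in SK-N-AS. It rose by 1.92 in CHP134 (SE 0.19, 3.77-fold) against a change of 0.07 in SK-N-AS (95% interval -0.42 to 0.55), a difference of 1.85 (SE 0.29, adjusted p = 0.0424). The lowest CHP134 repeat stood well above the highest SK-N-AS repeat. SV2B, a glycoprotein of synaptic vesicles, had 1.59, 2.08, 2.09 and 1.25 in CHP134 and 0.13, -0.12 and 0.08 in SK-N-AS. It rose by 1.75 (SE 0.14, 3.38-fold) against 0.03 (-0.33 to 0.39), a difference of 1.73 (SE 0.21, adjusted p = 0.0398). Both genes, and GREB1L below, were not above the background limit in SK-N-AS, so a fall there might have been missed. The same held for 9 of the 86 clusters, while 77 were above it.

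GFRA3, the co-receptor that presents artemin to the RET kinase, had 1.13, 1.44, 1.06 and 1.301 in CHP134 and 0.16, -0.10 and -0.14 in SK-N-AS. It rose by 1.23 (SE 0.09, 2.35-fold), with an SK-N-AS interval of -0.27 to 0.22 (difference 1.26, SE 0.14, adjusted p = 0.0301). The SK-N-AS level of GFRA3 with vehicle was 3.97, near the background limit of 3.78. ATG4A, a protease that processes the ATG8 proteins of autophagosomes, had 1.47, 1.504, 1.54 and 1.19 against 0.36, 0.12 and 0.44. Its CHP134 rise of 1.43 (SE 0.09) stood beside an SK-N-AS mean of 0.31 of the same sign, which was not called (difference 1.12, SE 0.14, adjusted p = 0.0398). UHMK1, a serine and threonine kinase with a splicing factor motif, was of the same kind, with 1.68, 1.33, 1.48 and 1.40 in CHP134 and 0.70, 0.29 and 0.55 in SK-N-AS. Its SK-N-AS interval of 0.26 to 0.76 reached past 1.5-fold, so the gene shows a larger change in CHP134 and not a change in CHP134 alone. The other rises named by rule were GREB1L, needed for kidney development (1.19 against 0.23), HS3ST4, a heparan sulfate sulfotransferase (1.16 against 0.13), LINGO2, a neuronal leucine-rich repeat protein (1.15 against 0.28), OSCP1 (1.07 against 0.32) and PLEKHA2, an adaptor that binds phosphoinositides (1.07 against 0.20). Their differences between lines ranged from 0.75 to 1.04, with adjusted p from 0.0426 to 0.0483. PLEKHA2 was not above the background limit in CHP134, at a level of 3.59 with vehicle, and CHP134 control shRNA cells had DOX differences of 1.03, 0.25, 1.55 and 0.43. After subtraction of the control differences its line difference was 0.11.

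**Figure D2:**
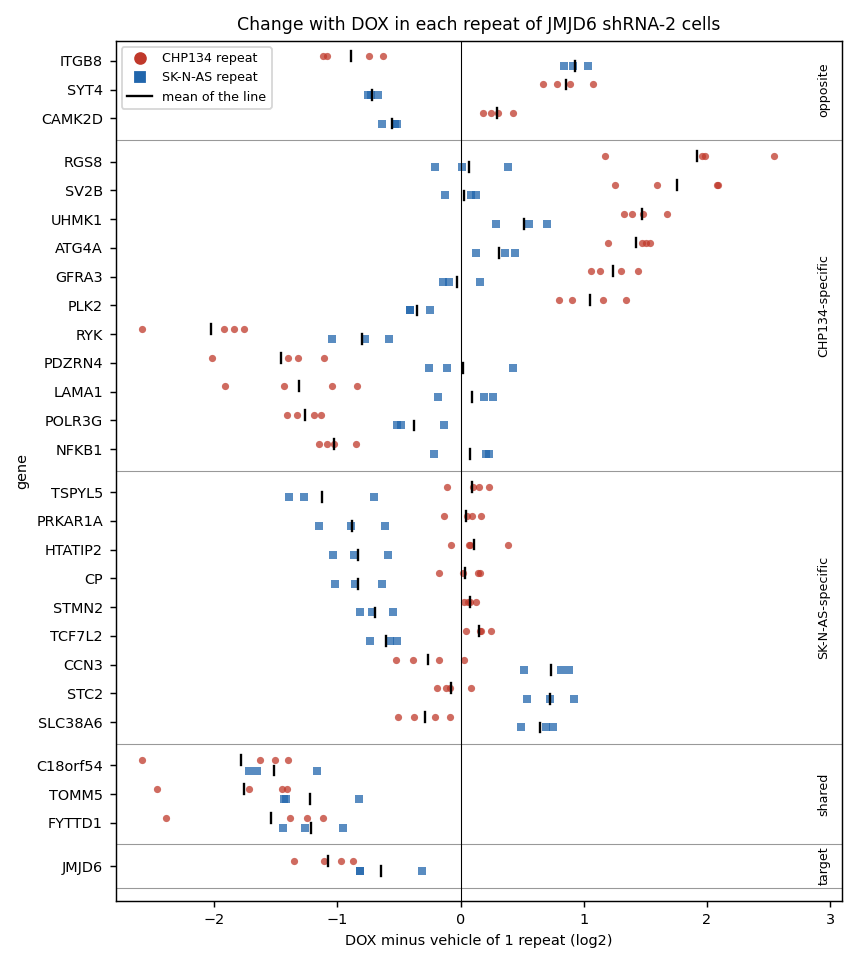
Each point is the DOX minus vehicle difference (log2) of 1 repeat for the gene on the y axis, with circles for CHP134 (n = 4), squares for SK-N-AS (n = 3) and a bar at the mean of each line. The lines are separated in every opposite, CHP134-specific and SK-N-AS-specific gene shown, which follows from how these were chosen. The lines overlap in C18orf54, TOMM5 and FYTTD1, which fell in both.

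PLK2, a polo-like kinase that p53 can induce, had opposite signs in the lines and was called in CHP134 only. Its differences were 0.91, 0.80, 1.35 and 1.15 in CHP134 and -0.25, -0.41 and -0.41 in SK-N-AS, and the gap of 1.41 (SE 0.16, adjusted p = 0.0301) was among the smallest p-values. CHGA, which encodes chromogranin A of dense-core granules, had 1.03, 0.88, 0.86 and 0.76 against 0.09, 0.22 and 0.07 (difference 0.75, SE 0.12, adjusted p = 0.0427). RIGI, a cytosolic sensor of viral RNA, had 0.85, 1.01, 1.32 and 0.71 against -0.08, -0.32 and 0.05 (difference 1.09, SE 0.17, adjusted p = 0.0426), and its CHP134 mean was not above the background limit. Other neuronal genes of the class that rose, chosen after their values were seen, were SLC6A2, the noradrenaline transporter, NHLH1 and NEUROD2, transcription factors of neuronal differentiation, DNM3, a dynamin of nerve endings, and ST8SIA2, which adds polysialic acid to NCAM. SLC6A2 had 0.53, 1.06, 0.66 and 0.41 in CHP134 and -0.57, -0.69 and -0.82 in SK-N-AS, so that its signs were opposite in all 7 repeats. It rose by 0.67 in CHP134 and its SK-N-AS mean of -0.69 had adjusted p = 0.054, just outside the threshold. NHLH1 rose by 0.95 and NEUROD2 by 0.62 in CHP134, beside SK-N-AS means of -0.27 and -0.44. DNM3 rose by 1.03 and ST8SIA2 by 1.00, beside 0.01 and 0.01 in SK-N-AS, where their vehicle levels were 4.24 and 4.05 and the background limit was 3.78. Neuronal genes of the class also fell. Chosen in the same way, HRH3, the histamine H3 receptor, fell by 1.02 in CHP134, FGF13 by 0.81, DOC2A, a calcium sensor of synaptic vesicle release, by 0.70 and PCDH10, a protocadherin, by 0.57, beside 0.06, 0.11, 0.39 and 0.31 in SK-N-AS.

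Among CHP134-specific falls the largest was in RYK, a Wnt receptor related to tyrosine kinases. Its differences were -2.59, -1.92, -1.84 and -1.76 in CHP134 and -0.78, -0.58 and -1.04 in SK-N-AS. RYK fell by 2.03 in CHP134 (SE 0.14, 4.08-fold), and the SK-N-AS change of -0.80 (95% interval -1.16 to -0.44, adjusted p = 0.0734) had the same sign without a call, so the lines differed in size of change (difference -1.23, SE 0.21, adjusted p = 0.048). LAMA1, the laminin alpha 1 chain of basement membranes, had -1.43, -1.91, -1.04 and -0.84 against 0.27, 0.19 and -0.18. It fell by 1.31 (SE 0.16, 2.48-fold) beside 0.09 in SK-N-AS, where its mean was near background with a level of 3.81 with vehicle. PDZRN4, a protein with PDZ and RING domains, had -2.02, -1.11, -1.40 and -1.32 against -0.26, 0.42 and -0.11 and fell by 1.46 (SE 0.15, 2.75-fold). Its SK-N-AS level with vehicle, 3.89, was likewise near the background limit of 3.78. For this gene the SK-N-AS control shRNA cells had DOX differences of 0.15, 0.34 and 0.72.

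NFKB1, which encodes the p105 precursor and p50 subunit of NF-kB, had -1.15, -1.09, -0.85 and -1.03 in CHP134 and -0.21, 0.21 and 0.23 in SK-N-AS. It fell by 1.03 (SE 0.10, 2.04-fold) with an SK-N-AS interval of -0.18 to 0.33 (difference -1.10, SE 0.15, adjusted p = 0.0398). GLUD1, the mitochondrial glutamate dehydrogenase, had -1.37, -1.04, -1.05 and -1.26 against -0.33, -0.14 and -0.21 and fell by 1.18 (SE 0.09). AK4, an adenylate kinase of the mitochondrial matrix, had -1.56, -0.97, -0.94 and -0.94 against 0.29, 0.45 and -0.05 and fell by 1.10 (SE 0.13), with repeat A apart from the other 3. SLC37A4, the glucose-6-phosphate transporter of the endoplasmic reticulum, fell by 1.19 beside -0.35. POLR3G, a subunit of RNA polymerase III, fell by 1.26 beside -0.38, TES, a focal adhesion protein, by 1.26 beside -0.31, and SQSTM1, the autophagy receptor p62, by 1.10 beside -0.25. These 4 genes were lower in all 7 repeats, and none of their SK-N-AS changes was called.

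A smaller group handles serine, sulfur amino acids and creatine. PSAT1, the phosphoserine aminotransferase of serine synthesis, had -0.76, -0.51, -0.43 and -0.55 in CHP134 and 0.57, 0.39 and 0.44 in SK-N-AS. It fell by 0.57 in CHP134 (SE 0.09) and its SK-N-AS mean of 0.46 was not called (adjusted p = 0.0864), a difference of -1.03 (SE 0.13, adjusted p = 0.0398). Chosen after their values were seen, CBS, which makes cystathionine (-0.49 against 0.37), SLC1A4, a carrier of serine and other neutral amino acids (-0.53 against 0.31), and SLC6A8, the creatine transporter (-0.77 against 0.28), had the same pattern. Of transcription factors seen in the same way, CREB5 (-0.89 against 0.42), LMO3 (-0.99 against 0.23), DLX4 (-0.98 against 0.21) and BCL6 (-0.61 against 0.27) fell in CHP134. IFI44L, an interferon-induced gene, had -0.75, -0.42, -0.54 and -0.44 against 0.45, 0.27 and 0.19 (difference -0.84, SE 0.14, adjusted p = 0.0426), which is the reverse of RIGI.

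The 10 SK-N-AS-specific clusters held 9 named genes, of which 6 fell and 3 rose, and for all 10 the CHP134 interval lay within 1.5-fold each way. TSPYL5, of the nucleosome assembly protein family, had -1.27, -0.70 and -1.39 in SK-N-AS repeats 1, B and C and 0.11, 0.23, -0.11 and 0.15 in CHP134. It fell by 1.12 in SK-N-AS (SE 0.14, 2.17-fold, adjusted p = 0.0271) beside 0.09 in CHP134 (difference 1.22, SE 0.18, adjusted p = 0.0408). PRKAR1A, which holds the catalytic subunit of the cyclic AMP dependent kinase inactive, had -0.89, -0.61 and -1.15 against 0.17, -0.13, 0.10 and 0.05. It fell by 0.88 (SE 0.12, 1.84-fold) beside 0.05 (95% interval -0.18 to 0.27), a difference of 0.93 (SE 0.16, adjusted p = 0.0447), and its level was well above background in both lines. STMN2, a tubulin-binding protein of growing axons, had -0.82, -0.55 and -0.72 against 0.06, 0.03, 0.08 and 0.13 and fell by 0.69 (SE 0.09, 1.62-fold). The groups did not overlap in any of these genes, which follows from how they were chosen (16.5% of all clusters had no overlap).

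HTATIP2, an oxidoreductase, fell by 0.83 beside 0.11, CP, the copper protein ceruloplasmin, by 0.83 beside 0.04, and TCF7L2, a transcription factor of Wnt signalling, by 0.61 beside 0.15. TSPYL5, HTATIP2, CP and TCF7L2 were not above the background limit in CHP134, with vehicle levels of 3.17, 3.24, 2.31 and 3.07, so a fall there might have been missed. CP was also not above the limit of SK-N-AS when all arrays of that line were averaged, although its fall there was called. The rises were in secreted proteins and an amino acid carrier. CCN3, a matricellular protein, had 0.88, 0.51 and 0.81 in SK-N-AS and -0.38, -0.17, 0.03 and -0.52 in CHP134, and rose by 0.74 (SE 0.13, 1.67-fold, line difference -0.999, adjusted p = 0.043). STC2, the hormone stanniocalcin 2, which cells make under endoplasmic reticulum stress, had 0.54, 0.92 and 0.73 against -0.08, -0.12, -0.19 and 0.08 and rose by 0.73 (SE 0.10, 1.66-fold). SLC38A6, of the neutral amino acid transporter family, had 0.69, 0.49 and 0.75 against -0.21, -0.50, -0.08 and -0.37 and rose by 0.64. In SK-N-AS control cells the differences of STC2 were 1.15, -0.59 and -0.30 and those of CCN3 were 0.54, 0.24 and -0.68, a spread as wide as the shRNA-2 changes.

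For 73 clusters (0.340%) both lines were called with the same sign and no difference between lines was called, 18 higher and 55 lower. These make up 66.97% of the SK-N-AS calls and 1.97% of the CHP134 calls. C18orf54 had -2.59, -1.63, -1.40 and -1.51 in CHP134 and -1.65, -1.16 and -1.72 in SK-N-AS, means of -1.78 and -1.51 (difference -0.27, SE 0.28). TOMM5, a small subunit of the mitochondrial import pore, fell by 1.76 and 1.23, FYTTD1, an mRNA export adaptor, by 1.53 and 1.22, DPM1, the catalytic subunit of dolichol phosphate mannose synthase, by 1.45 and 1.28, RASSF3 by 1.496 and 1.73, and PUDP, a pseudouridine phosphatase, by 1.41 and 1.28. Their line differences had SEs of 0.20 to 0.38, and adjusted p ran from 0.381 to 0.86, which does not show that the changes were equal. Thus the largest SK-N-AS falls lay in genes that also fell in CHP134, while the SK-N-AS-specific falls reached 1.12 at most.

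Gene lists were described by their counts and medians, beside medians over all clusters of 0.003 in CHP134, 0.0199 in SK-N-AS and -0.0163 for the difference. Over all clusters 8.74% were called higher and 8.54% lower in CHP134, 0.121% and 0.387% in SK-N-AS, and 0.476% for the difference. A list with 0 calls in SK-N-AS or for the difference is therefore not set apart from all clusters. The mean change was above 0 for 10842 of 21448 clusters in CHP134 and for 11780 in SK-N-AS. Genes of neuronal differentiation and the synapse had the largest positive median in CHP134, 0.371, against 0.149 in SK-N-AS. Of 37 measured, 20 rose and 1 fell in CHP134, and 0 rose and 2 fell in SK-N-AS. The difference was called for 4 of the 37, beside 0.476% of all clusters, namely SYT4, SV2B, CHGA and STMN2. All 4 had the higher change in CHP134, but STMN2 was called for its fall in SK-N-AS and not for its CHP134 change of 0.08. Mitochondrial respiratory chain genes had medians of 0.26 and 0.11, with 23 of 59 higher and 2 lower in CHP134 and no call in SK-N-AS or for the difference. NDUFA1 of complex I had 0.75, 0.60, 0.65 and 0.44 against 0.17, 0.00 and -0.17, without a called difference (adjusted p = 0.0846). Of 36 cytosolic ribosomal protein genes, 7 rose in CHP134, the CHP134 mean was above 0 for all 36 and the SK-N-AS mean for 30, with medians of 0.204 and 0.0295.

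Lists of cell cycle genes had medians below 0 in both lines, with calls in CHP134 alone. Over all clusters 8.54% were called lower in CHP134 and 0.387% in SK-N-AS, so 0 calls in SK-N-AS do not set these lists apart. E2F targets of DNA replication had medians of -0.44 in CHP134 and -0.22 in SK-N-AS, and 40 of 60 fell in CHP134 and 0 in SK-N-AS, with 0 called for the difference. In each line 2 of the 60 means were above 0. GINS4, of the replicative helicase, had -0.96, -0.998, -1.03 and -0.99 against -0.49, -0.25 and -0.60, and CDC25A, the phosphatase that activates cyclin dependent kinases at S phase entry, had -0.78, -0.48, -0.40 and -0.50 against -0.05, 0.20 and 0.01, each with adjusted p = 0.090 for the difference. G2/M genes had medians of -0.298 and -0.213, with 27 of 66 lower in CHP134 and 0 in SK-N-AS. E2F2, which drives entry into S phase, had -1.65, -1.14, -0.83 and -0.91 in CHP134 and -0.23, -0.23 and -0.45 in SK-N-AS. It fell by 1.13 in CHP134 (SE 0.13), the SK-N-AS change was -0.30 (SE 0.15, adjusted p = 0.439), and the difference of -0.83 (SE 0.20, adjusted p = 0.0909) was not called. MYCN, the amplified oncogene of CHP134, rose by 0.44 there (SE 0.09, adjusted p = 0.00899) and had 0.10 in SK-N-AS, where its level of 4.18 with vehicle was close to background (difference 0.34, adjusted p = 0.277). MYC had 0.19 and 0.00, neither called.

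Replication-dependent histone genes had the lower median in SK-N-AS, with medians of -0.129 in CHP134 and -0.277 in SK-N-AS. Their difference was above 0 for 38 of 49, beside 10175 of 21448 over all clusters. H3C6 was the 1 histone gene called for the difference (0.59, 0.33, 0.76 and 0.72 against -0.32, -0.20 and -0.29). Histone genes are near copies of each other, so their probes may share signal. Lists whose medians had opposite signs in the lines included the unfolded protein and integrated stress response (-0.0695 and 0.147, with 11 and 25 of 32 means above 0) and sterol and fatty acid synthesis (-0.126 and 0.0944, with 10 and 20 of 28). Calls within them were few. In the stress list 1 gene rose and 5 fell in CHP134, which at 18.8% is near the 17.3% of all clusters, none was called in SK-N-AS, and PSAT1 was the 1 called difference. In the sterol list 2 rose and 5 fell in CHP134, with no call in SK-N-AS and none for the difference. Genes of serine, one-carbon and nucleotide synthesis had medians of -0.223 and -0.0099, and 9 of 29 fell in CHP134 and 0 in SK-N-AS, beside 8.54% and 0.387% of all clusters. Splicing factors, substrates of JMJD6 among them, had like medians in both lines, -0.0867 and -0.0691 over 47 clusters. For mesenchymal genes YAP1 had -0.29, 0.85, -0.12 and 0.45 in CHP134, where it was near background, and -0.87, -0.54 and -0.89 in SK-N-AS, and neither change nor difference was called.

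**Figure D3:**
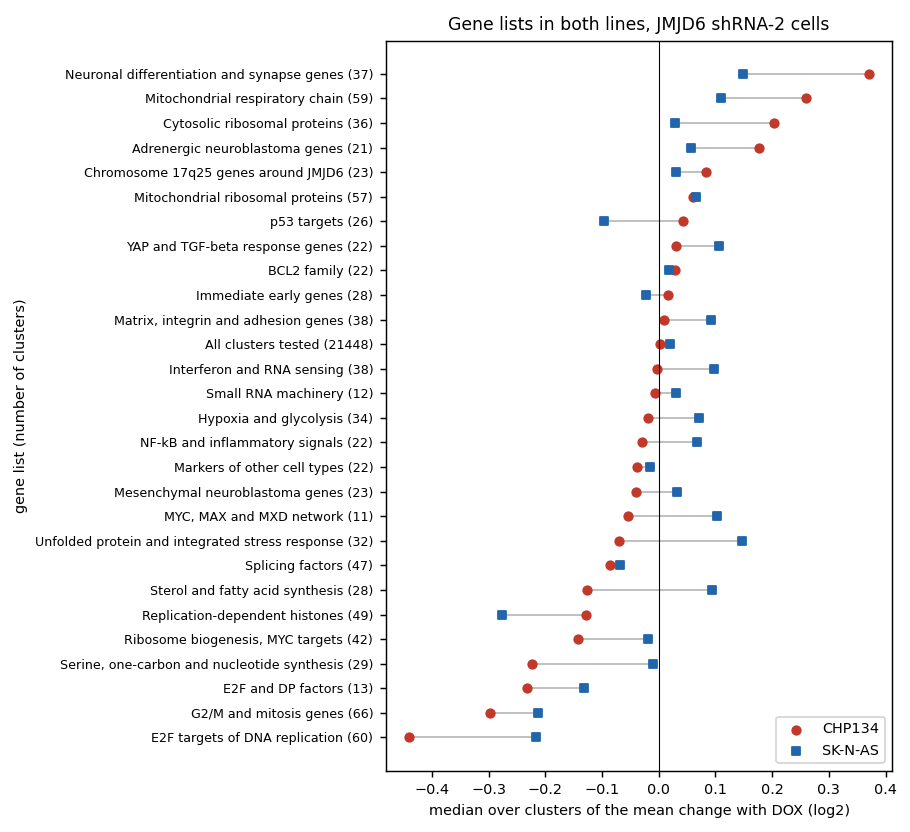
For each gene list on the y axis (number of clusters in brackets), the x axis gives the median over its clusters of the mean change with DOX (log2), with circles for CHP134 and squares for SK-N-AS. The list of neuronal genes (0.371 and 0.149) and that of E2F targets (-0.44 and -0.22) lie at the ends for CHP134. For SK-N-AS the lowest median is that of histone genes (-0.277).

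A second hairpin, JMJD6 shRNA-1, was measured in CHP134 on 8 further arrays (repeats A, B, E and F), which had no part in the choice of these genes. Of the 86 CHP134-specific clusters, 78 had the same sign with shRNA-1 as with shRNA-2, where 62.3% of all clusters did. In 59 of the 86 all 4 shRNA-1 repeats lay on the side of the shRNA-2 change, where 19.7% of all clusters did. limma called 16 of the 86 for shRNA-1, all in the direction of shRNA-2, where 1.46% of all clusters were called. Of the 73 shared clusters, 64 had the same sign, 54 had all 4 repeats on that side and 20 were called. Agreement of the hairpins was thus not particular to CHP134-specific clusters. The 16 included the rises of SV2B (1.35 with shRNA-1), UHMK1 (0.85) and LINGO2 (1.20) and the falls of RYK (-1.02), LAMA1 (-0.75), GLUD1 (-1.32), POLR3G (-1.08), SQSTM1 (-0.63) and SLC37A4 (-0.74). GFRA3 had a large shRNA-1 mean of 1.48 without a call (adjusted p = 0.0609). Other genes had shRNA-1 means near 0 or of the opposite sign, of which NEUROD2 and FGF13, an intracellular fibroblast growth factor, were chosen after their values were seen. TES had 0.18, PDZRN4 -0.07, NEUROD2 -0.42 and FGF13 0.18 with shRNA-1, beside -1.26, -1.46, 0.62 and -0.81 with shRNA-2. PSAT1 had -0.10, CBS -0.16, SLC1A4 -0.24 and SLC6A8 -0.25 with shRNA-1, of the same sign as with shRNA-2 but not called. For the genes of opposite change, shRNA-1 gave 0.50 for SYT4, -0.25 for ITGB8 and 0.82 for CAMK2D, none called. No shRNA-1 cells of SK-N-AS were among the samples, so the SK-N-AS-specific genes rest on 1 hairpin.

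**Figure D4:**
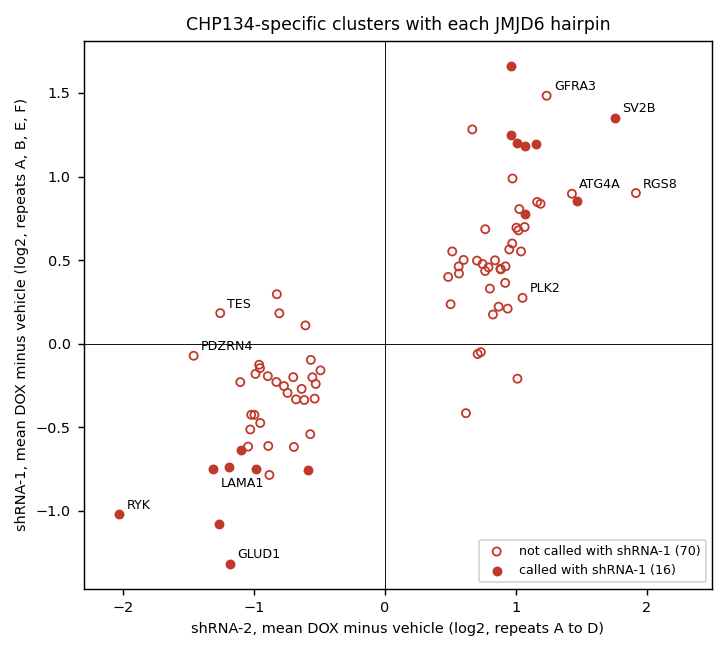
Each point is 1 of the 86 CHP134-specific clusters, with the mean DOX minus vehicle change (log2) with shRNA-2 (n = 4) on the x axis and with shRNA-1 (n = 4) on the y axis. Filled points (16) were called with shRNA-1, all on the same side as with shRNA-2, and TES and PDZRN4 lie near 0 on the y axis.

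Control shRNA cells of both lines had received DOX and vehicle in the same repeats. Over the 86 CHP134-specific clusters the median absolute mean change in control cells was 0.0941 in CHP134 and 0.0723 in SK-N-AS. The median with shRNA-2 in CHP134 was 0.92, but the clusters were chosen by that change. The gap between these medians was therefore largely fixed beforehand and does not show what DOX alone did. PLEKHA2 (0.81) and SLC6A2 (0.40) had the largest mean changes in CHP134 control cells. In the SK-N-AS means, differences of opposite sign cancel, so 0.0723 does not show that single differences were small. Chosen after their values were seen, PLK2 had -1.39, 1.04 and 0.56 in SK-N-AS control cells (mean 0.07). RASA4 had 1.83, -1.59 and -0.08 (mean 0.05). Other genes had small differences in each repeat, such as OSCP1 with 0.03, -0.22 and 0.16. After subtraction of the control difference of the same letter, 0 line differences were called by limma, where 1477 clusters had an unadjusted p under 0.05. In that fit CHP134 had 630 calls and SK-N-AS 0. The SK-N-AS control arrays did not group by their labels. The vehicle array of repeat 1 and the DOX array of repeat B correlated with each other by 0.45 and with the other 4 control arrays by -0.39 to -0.31 (deviations from the mean of the line), and the control differences of repeats 1 and B correlated by -0.58. An exchange of labels or cells between arrays would alter what the control-subtracted values mean, and it was not tested. Without these 2 arrays, in a fit of group means, 0 differences were called again and 889 clusters had an unadjusted p under 0.05.

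With CHP134 repeats A and B alone, or C and D alone, the line differences of RGS8 were 2.20 and 1.5005, for SV2B 1.81 and 1.64, for ITGB8 -1.79 and -1.86, and for TSPYL5 1.29 and 1.14. With only 2 CHP134 repeats no line difference was called in either case, where 3391 and 2916 clusters had an unadjusted p under 0.05 by limma. The number of calls varied with the setting. It was 674 (3.14%) with the variances of the lines kept apart, 348 of 15793 clusters (2.20%) when dim clusters were left out, and 188 (0.877%) with array weights. It was 111 (0.518%) after median centring, 8 (0.0373%) with a trend of the spread over intensity and 5 (0.0233%) when robust moderation was added to the trend.

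**Figure D5:**
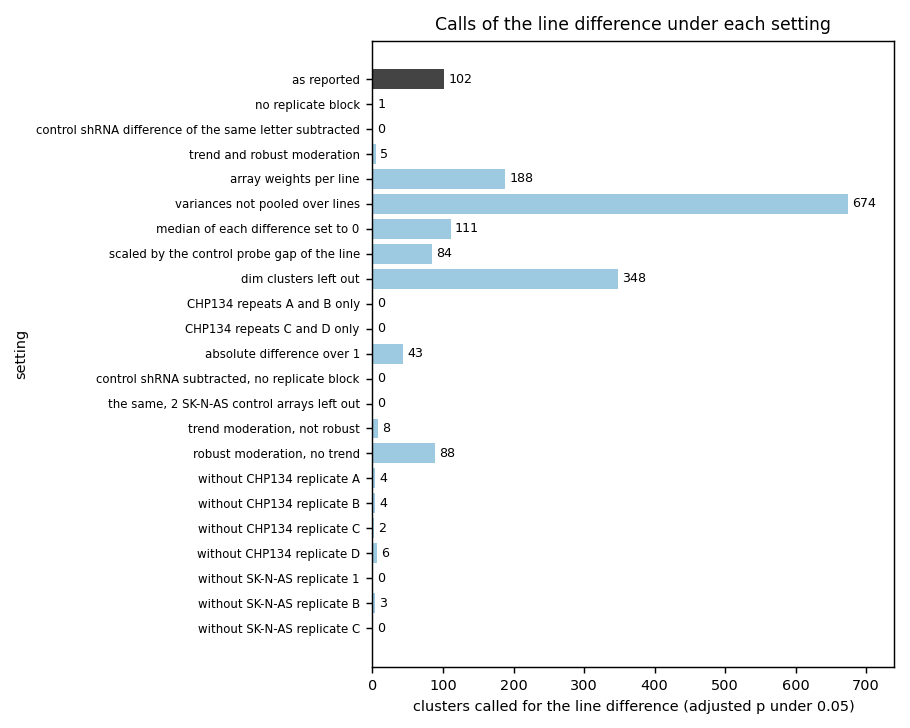
Bars give the number of clusters called for the line difference (x axis, adjusted p under 0.05 by limma) under each setting on the y axis, with the reported count of 102 in dark grey. The count was between 0 and 6 in the fits without 1 repeat and between 0 and 674 over all settings.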

How the data were processed

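Probe set values were deposited as log2 intensities after RMA, by which the authors corrected background, normalized and summarized the probes. The submitters' processing notes name RMA and limma, with versions not given in the sources used here. Both lines were normalized apart. Since RMA forces 1 distribution on the arrays of a run, a shift common to most genes cannot be seen. The table held 27189 probe sets, of which 5741 were controls and 21448 were clusters that entered the tests, 17709 with 1 gene symbol. limma (version 3.58.1, R 4.3.3) fitted the 7 differences with a mean per line (lmFit, eBayes), two-sided, with Benjamini-Hochberg adjustment over all clusters and a threshold of 0.05. Fold changes are on the log2 scale of RMA values, which are compressed near background.

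Same-letter arrays deviated together (correlation 0.41 to 0.51 in CHP134 and 0.18 to 0.41 in SK-N-AS, all 7 pairs over 0.1), so differences per repeat were used. Arrays of different letters correlated by -0.45 to 0.32 in CHP134 and -0.25 to 0.11 in SK-N-AS, so the limit of 0.1 was also passed without a shared letter. Labels do not say whether repeats were separate cultures, and p-values therefore reflect the spread of these samples alone, which may be technical. On simulated data for the line difference over 21448 clusters, 65 of 100 changes of 1 and 98 of 100 changes of 2 were called, and 3 unchanged clusters. Unlike the data, the simulation gave both lines the same spread and left all other clusters unchanged in both lines. Its shares therefore need not hold for the data.

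Members, gene lists (28) and alternatives were chosen with earlier results of these data known. 1 of the lists is not reported here. Named genes were JMJD6, E2F2, MYCN and MYC, up to 10 largest changes each way per class, up to 8 opposite and 6 shared genes, up to 5 each way per class with the other line within 1.5-fold, and up to 4 members per list by p of the line difference. The alternatives covered pairing, control cells, moderation, spread per line, scale, dim clusters, repeats and threshold. The 4 copies of control arrays were not used.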

Additional observations from a re-analysis of the deposited data

Results flagged for a closer look

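The DOX change differed between the lines, by the test of the difference itself, in 102 clusters and in the following named genes (log2, CHP134 minus SK-N-AS). Of opposite genes these were SYT4 (1.57), ITGB8 (-1.82) and CAMK2D (0.85). Of CHP134-specific rises they were RGS8 (1.85), SV2B (1.73), PLK2 (1.41), GFRA3 (1.26), ATG4A (1.12), RIGI (1.09), HS3ST4 (1.04), UHMK1 (0.96), GREB1L (0.95), LINGO2 (0.88), PLEKHA2 (0.88), H3C6 (0.87), CHGA (0.75) and OSCP1 (0.75). Of CHP134-specific falls they were PDZRN4 (-1.48), LAMA1 (-1.40), AK4 (-1.33), RYK (-1.23), NFKB1 (-1.10), PSAT1 (-1.03), GLUD1 (-0.95), TES (-0.94), POLR3G (-0.89), SQSTM1 (-0.85), IFI44L (-0.84) and SLC37A4 (-0.83). Of SK-N-AS-specific genes they were TSPYL5 (1.22), HTATIP2 (0.94), PRKAR1A (0.93), CP (0.87), STMN2 (0.77), TCF7L2 (0.76), CCN3 (-0.999), SLC38A6 (-0.94) and STC2 (-0.80). AK4 was also marked because CHP134 repeat A, at -1.56, lay far from the other 3 repeats, a pattern that chance gives in about 1 of 20 groups. Repeat A also had the widest spread over all clusters, so the mark is not particular to AK4.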

How the results depend on the processing

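The number of calls did not hold. The sign of the 102 line differences did not change, which their choice on the same repeats largely fixes. In the order line difference, CHP134 response, SK-N-AS response, the counts were 102, 3706 and 109 as reported, and the classes held 86 CHP134-specific, 10 SK-N-AS-specific, 5 opposite and 73 shared clusters. Without the replicate block (arrays unpaired) the counts were 1, 1565 and 17, with classes of 1, 0, 0 and 11. With the same-letter control difference subtracted they were 0, 630 and 0, with 0 in each class (1477 and 1205 clusters had p under 0.05 for the line difference and in SK-N-AS). With control cells subtracted and no pairing they were 0, 411 and 2, with classes of 0, 0, 0 and 1, and without the 2 SK-N-AS control arrays that stand apart 0, 463 and 0, with no class filled (858 and 889 line differences had p under 0.05). With trend and robust moderation they were 5, 3642 and 0 (classes 5, 0, 0 and 0), with trend alone 8, 3687 and 0 (classes 8, 0, 0 and 0). With variances not pooled they were 674, 2376 and 0 (classes 516, 0, 0 and 0), and with array weights 188, 3012 and 407 (classes 156, 25, 5 and 227). With dim clusters left out they were 348, 4309 and 233 (classes 309, 20, 8 and 169). With CHP134 repeats A and B alone they were 0, 1974 and 0 (no class filled), with C and D alone 0, 849 and 184 (classes 0, 0, 0 and 89). With an absolute change over 1 they were 43, 209 and 22 (classes 18, 1, 0 and 13). Without 1 repeat the line difference had 0 to 6 calls (0 without SK-N-AS repeat 1 or C, where 2473 and 2467 clusters had p under 0.05), CHP134 2359 to 3202 and SK-N-AS 0 to 331, with 331 without CHP134 repeat A and 0 without CHP134 repeat D or any SK-N-AS repeat. The classes then held 0 to 6, 0, 0 to 2 and 0 to 198. Median centring, scaling by the control probe gap and robust moderation without trend left the counts within 1.5 times. The cause of these shifts was not tested.

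Reversed signs were seen in 4 shared genes whose line difference was near 0. PUDP had 0.06 with control cells subtracted in either way, 0.18 without the 2 arrays that stand apart, and -0.287 to 0.0738 over the fits without 1 repeat, above 0 without CHP134 repeat A or SK-N-AS repeat B (0.0392). RASSF3 had -0.10 with repeats A and B alone and -0.063 (without SK-N-AS repeat C) to 0.591 over the fits without 1 repeat. C18orf54 had 0.0573 with repeats C and D alone and 0.13 without the 2 arrays that stand apart, where DPM1 had 0.0244. The alternatives that subtract control cells without pairing, or use trend or robust moderation alone, and the shRNA-1 comparison were chosen after seeing the data. With 4 and 3 repeats, changes near background limit what can be called.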
